A study of Mus musculus with 12 samples.

Results

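Reactive glia genes are a set of 10 protein-coding genes known from reactive astrocytes and glial scars: Gfap, Vim, Cd44, Fbln5, Osmr, Serpina3n, C4b, Cp, Lcn2 and Ggta1. They were taken by symbol from a table of 55401 gene IDs, and all 10 were found and passed the filter on low counts, as did 21958 genes in all. Its members were chosen by known role in reactive glia, with earlier results of these counts in view, among them the log2 fold changes of knockdown over scramble with morphine, so the differences between groups below describe the genes and are not independent evidence that the list changed. The tissue was medial prefrontal cortex (mPFC) of male Mus musculus, taken after 2 weeks of extinction of a conditioned place preference (CPP), in which a preference for a drug-paired chamber is lost. Each of 3 groups held 4 libraries. One received a scramble adeno-associated virus (AAV) and saline, one the same scramble virus and morphine, and one a virus against the serotonin receptor 5-HT6R (AAV-5-HT6Rkd) and morphine. All animals thus carried a virus and went through extinction. No group combined the knockdown with saline, and the labels give no strain, age or virus promoter. The series asked which targets follow from lower 5-HT6R during extinction of a morphine place preference.

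Astrocytes, the glial cells that support neurons and ensheath vessels and synapses, respond to injury, infection or cytokines by a change of state called reactivity. They then make more intermediate filament protein, secrete acute-phase proteins and complement, and at a lesion can form a scar. The cytokine oncostatin M and its relatives, acting through STAT3, are one known route into this state. Several of these genes are also used by other cells of the cortex, Vim by endothelium, Cd44 by immune cells and Fbln5 by vessel walls, and tissue RNA does not assign a transcript to a cell. In such bulk tissue, fewer cells of a type and less RNA per cell cannot be told apart.

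Promoter sequence is shown so that a reader can see how few of the motifs named below lie close to the start. Whether STAT3, AP-1 or the glucocorticoid receptor acts on the members was not tested. RefSeq promoter windows of build GRCm38.p6 were found for 9 of the 10 genes, 11 windows in all. The 250 bases before the start were searched on both strands for the STAT motif TTCNNNGAA, the AP-1 motif TGANTCA, the palindromic glucocorticoid receptor motif and the TATA box TATAAA; matches to different motifs did not overlap in the windows shown. Windows are printed 5′ to 3′ on the strand of the gene where they hold no annotated exon, and capitals mark a motif match. Window 2 of Fbln5 also holds none but is not printed, and the bases checked after its start matched no annotated Fbln5 transcript.
Gfap, chr11:102897201-102897450, minus strand: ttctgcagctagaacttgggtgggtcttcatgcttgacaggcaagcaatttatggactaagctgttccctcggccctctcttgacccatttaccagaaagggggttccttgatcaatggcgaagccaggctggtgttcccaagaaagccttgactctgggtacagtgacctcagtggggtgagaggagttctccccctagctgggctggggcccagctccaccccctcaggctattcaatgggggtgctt
Serpina3n, chr12:104406458-104406707, plus strand: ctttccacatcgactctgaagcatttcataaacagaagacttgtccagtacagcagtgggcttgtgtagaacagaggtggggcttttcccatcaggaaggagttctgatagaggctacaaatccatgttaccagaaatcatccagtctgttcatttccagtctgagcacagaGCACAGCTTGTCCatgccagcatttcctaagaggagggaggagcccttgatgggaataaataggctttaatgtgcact
Cp, chr3:19956804-19957053, plus strand: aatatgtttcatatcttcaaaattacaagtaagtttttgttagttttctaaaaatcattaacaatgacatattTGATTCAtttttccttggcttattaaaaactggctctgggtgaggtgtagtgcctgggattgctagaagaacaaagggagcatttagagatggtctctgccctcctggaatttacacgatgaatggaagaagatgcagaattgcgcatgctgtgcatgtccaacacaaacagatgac
Ggta1, chr2:35461450-35461699, minus strand: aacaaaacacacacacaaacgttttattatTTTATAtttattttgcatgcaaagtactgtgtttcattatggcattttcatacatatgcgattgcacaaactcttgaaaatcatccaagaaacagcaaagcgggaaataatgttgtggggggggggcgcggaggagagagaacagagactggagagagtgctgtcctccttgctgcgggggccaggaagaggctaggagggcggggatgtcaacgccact
Cd44, chr2:102901666-102901915, minus strand: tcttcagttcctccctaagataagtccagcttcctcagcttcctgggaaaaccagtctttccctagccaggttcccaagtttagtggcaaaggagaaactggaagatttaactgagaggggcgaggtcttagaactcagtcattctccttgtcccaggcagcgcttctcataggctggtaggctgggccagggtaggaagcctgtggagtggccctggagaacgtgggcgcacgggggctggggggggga

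The Serpina3n window held 1 match to the glucocorticoid receptor motif, GCACAGCTTGTCC, 78 to 66 bases before the start, a motif found in 0.387% of the 32817 windows of the table. The Cp window held TGATTCA, 177 to 171 bases before the start. It matches the AP-1 pattern only as searched, TGANTCA with any central base, which 6.75% of windows held. The Ggta1 window held a TATA match on the opposite strand, 220 to 215 bases before the start. Closer TATA matches lay in windows not printed, 32 to 27 bases before the start of Vim and, on both strands, 27 to 20 bases before the start in the other window of Cp, and 12.4% of all windows had a match somewhere. The STAT motif, present in 7.01% of windows, had no match in the 11 windows of the members. The Gfap and Cd44 windows shown held no match to any of the 4 motifs. These are matches of letters only.

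Total counts per library ran from 41483220 to 65739423. Levels are given as CPM, counts divided by the TMM-scaled library size in megacounts, and members are compared with each other only as CPM per kilobase of annotated exon. Htr6, the gene of the targeted receptor, had group means of 6.17 ± 1.60 CPM in saline, 5.21 ± 0.32 CPM in scramble morphine and 4.77 ± 0.763 CPM in knockdown (SD, n = 4 each). Its groups overlapped, so it does not check the labels. Summed markers of cortical neurons ran over the 12 libraries from 7420 CPM in knockdown replicate 1 to 9380 CPM in knockdown replicate 2. The labels do not tie libraries to individual mice. Each p-value therefore reflects only how far these libraries scattered, and some of that scatter may be technical.

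Gfap was the most abundant member per length, at a mean of 152 CPM per kilobase. It was followed by C4b at 34.9, Serpina3n at 22.3 and Vim at 16.0 CPM per kilobase. A lower tier held Cp at 2.43, Ggta1 at 2.25, Cd44 at 1.97, Lcn2 at 1.01, Osmr at 0.901 and Fbln5 at 0.745. Gfap exceeded C4b, C4b exceeded Serpina3n and Vim exceeded Cp in 12 of 12 libraries. The order of Ggta1 over Cd44 held in 7 of 12 libraries and that of Lcn2 over Osmr in 4 of 12, so these neighbours were not separated.

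**Figure D1:**
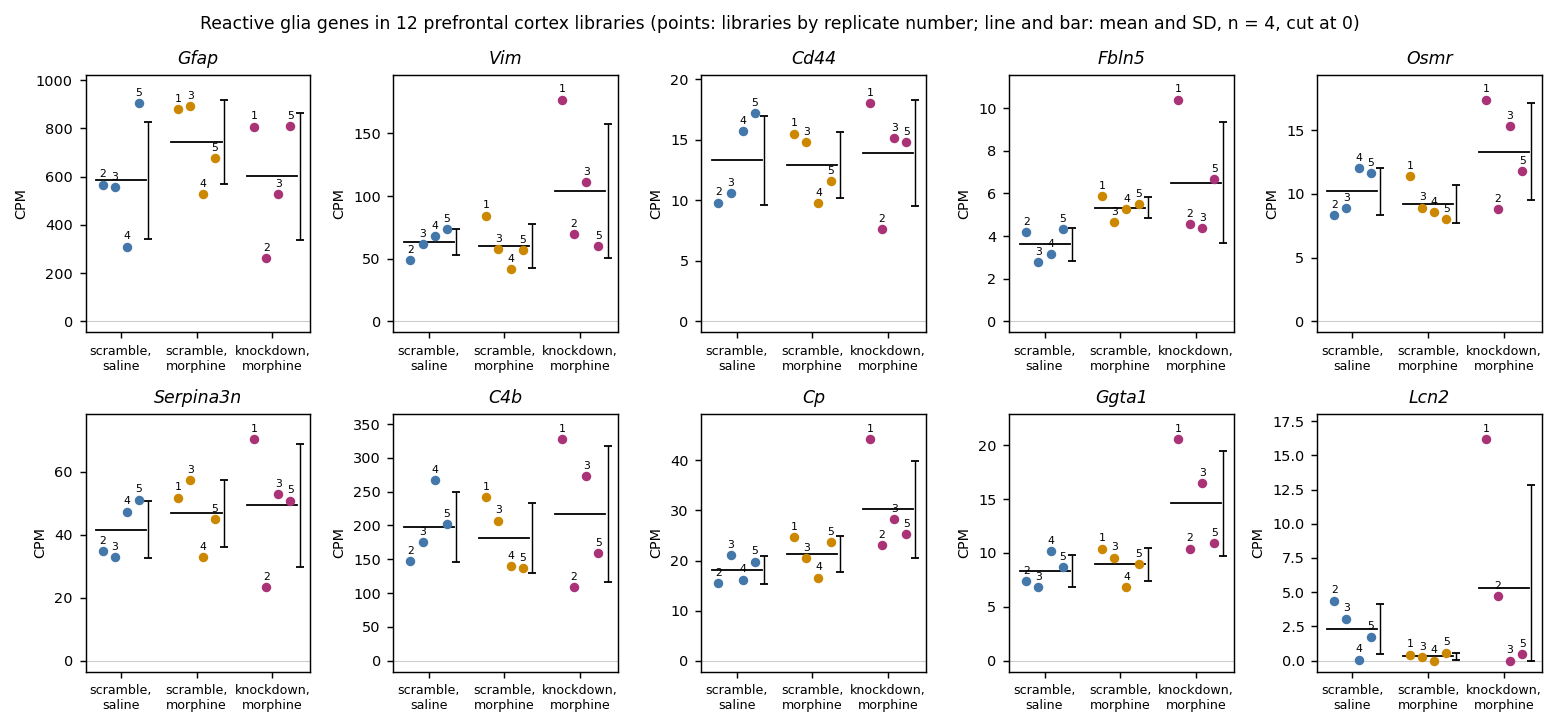
CPM of each of the 10 genes (vertical axes, each with its own scale from 0) in the 12 libraries, as points by group, with the group mean and SD (n = 4) beside them and bars cut at 0. Knockdown replicate 1 is the highest library in 9 of the 10 panels, and Gfap is highest in saline replicate 5.

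The filament genes came first. Gfap (ENSMUSG00000020932, mm10 chromosome 11, 102887336 to 102900912, minus strand) encodes glial fibrillary acidic protein, the classic filament of reactive astrocytes. Its level was 567, 555, 310 and 905 CPM in saline replicates 2, 3, 4 and 5, 879, 892, 526 and 678 CPM in scramble morphine replicates 1, 3, 4 and 5, and 807, 262, 528 and 808 CPM in knockdown replicates 1, 2, 3 and 5. The 3 groups overlapped, and the saline libraries alone spanned most of the range. Gfap was the only member with a lower mean in knockdown than in scramble with morphine, at 601 ± 262 against 744 ± 175 CPM (SD, n = 4 each). The log2 difference was -0.31 (SE 0.40).

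Vim (ENSMUSG00000026728, chromosome 2, 13573927 to 13582826, plus strand) encodes vimentin, a filament protein that reactive astrocytes share with endothelial and other mesenchymal cells. Its level was 49.1, 61.6, 68.1 and 73.5 CPM in saline, 84.3, 57.7, 41.9 and 56.8 CPM in scramble morphine and 177, 69.4, 111 and 60.0 CPM in knockdown, in the same order of replicates. Knockdown replicates 1 and 3 stood above every other library, while the other two knockdown libraries lay among the scramble ones. The log2 fold change of knockdown over scramble morphine was 0.79 (SE 0.34), and it was 0.40 without knockdown replicate 1.

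Cd44 and Fbln5 belong to adhesion and matrix. Cd44 (ENSMUSG00000005087, chromosome 2, 102811141 to 102901665, minus strand), the hyaluronan receptor, stood at 13.3 ± 3.67, 12.9 ± 2.72 and 13.9 ± 4.41 CPM (SD, n = 4) in saline, scramble morphine and knockdown. Its groups lay on top of each other, with the lowest value, 7.63 CPM, and the highest, 18 CPM, both among the knockdown libraries.

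Fbln5 (ENSMUSG00000021186, chromosome 12, 101746565 to 101819055, minus strand) encodes fibulin-5, a protein of elastic fibres. Its level was 4.18, 2.77, 3.15 and 4.33 CPM in saline, 5.87, 4.67, 5.27 and 5.49 CPM in scramble morphine and 10.4, 4.57, 4.36 and 6.66 CPM in knockdown. All 4 scramble morphine libraries and all 4 knockdown libraries lay above the highest saline library, though knockdown replicate 3 did so by a narrow margin. The log2 fold change was 0.56 (SE 0.25) for morphine over saline and 0.85 (SE 0.25) for knockdown over saline, and Fbln5 was the least abundant member per length.

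Osmr (ENSMUSG00000022146, chromosome 15, 6813577 to 6874969, minus strand) encodes the receptor subunit for oncostatin M. Its level was 8.35, 8.89, 12 and 11.6 CPM in saline, 11.4, 8.93, 8.57 and 8.01 CPM in scramble morphine and 17.4, 8.78, 15.3 and 11.8 CPM in knockdown. Of the 4 knockdown libraries 3 were above the highest scramble morphine library, and replicate 2 was not. The log2 fold change of knockdown over scramble morphine was 0.53 (SE 0.19).

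Among the secreted proteins, Serpina3n (ENSMUSG00000021091, chromosome 12, 104406729 to 104414329, plus strand) encodes a serine protease inhibitor of the acute phase. Its level was 34.7, 32.9, 47.4 and 51.2 CPM in saline, 51.8, 57.5, 32.9 and 45.1 CPM in scramble morphine and 70.5, 23.4, 52.9 and 50.9 CPM in knockdown. The groups overlapped, with the extremes again in knockdown replicates 1 and 2. Serpina3n took 97.3% of the counts of the 11 Serpina3 genes of its cluster, whose near-identical copies can share reads.

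C4b (ENSMUSG00000073418, chromosome 17, 34728380 to 34743882, minus strand) encodes complement component 4. Its level was 147, 175, 267 and 202 CPM in saline, 242, 207, 140 and 137 CPM in scramble morphine and 328, 109, 273 and 159 CPM in knockdown. The groups overlapped, and the knockdown libraries included the highest and the lowest of the 12. Its near-identical copy C4a was counted at a mean of 8.43 CPM, and how reads were divided between the copies was not tested.

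Cp (ENSMUSG00000003617, chromosome 3, 19957054 to 20009145, plus strand) encodes ceruloplasmin, a copper-carrying ferroxidase. Its level was 15.5, 21.0, 16.2 and 19.8 CPM in saline, 24.6, 20.4, 16.6 and 23.7 CPM in scramble morphine and 44.3, 23, 28.2 and 25.2 CPM in knockdown. All 4 knockdown libraries were above all 4 saline libraries, and 3 of them were above the highest scramble morphine library. The log2 fold change was 0.50 (SE 0.19) over scramble morphine and 0.74 (SE 0.19) over saline. Cp overlaps Hps3 on the opposite strand, at a mean of 20.9 CPM, and whether the counting used the strand is not given in the sources used here.

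Lcn2 (ENSMUSG00000026822, chromosome 2, 32384633 to 32388252, minus strand) encodes lipocalin-2, which binds bacterial siderophores and is also abundant in neutrophils. Its level was 4.38, 3.07, 0.0639 and 1.76 CPM in saline, 0.441, 0.259, 0 and 0.584 CPM in scramble morphine and 16.2, 4.70, 0 and 0.487 CPM in knockdown. The high values came from knockdown replicates 1 and 2 and saline replicates 2 and 3, and knockdown replicate 3 had no count. A count of 0 allows up to 0.0722 CPM in scramble morphine replicate 4 and 0.0545 CPM in knockdown replicate 3 (3 counts, counting error only).

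The spread of Lcn2 within groups was far above that of the other members, with a biological coefficient of variation of 161% against 19.7 to 38.8%. Its fold of knockdown over scramble morphine, 15.7, had a 95% interval from 1.15 to 215. On the log2 scale it was 3.98, against 2.34 without knockdown replicate 1 and 0.69 in limma voom. The neutrophil gene S100a8 was highest in 3 of the 4 libraries where Lcn2 was high, at 0.692 and 0.676 CPM in saline replicates 2 and 3 and 0.543 CPM in knockdown replicate 1. The neutrophil genes S100a9 and Ngp were highest in the same 3 libraries. In knockdown replicate 2, where Lcn2 was 4.70 CPM, S100a8 and Ngp had no count and S100a9 had 8. The part of neutrophil RNA in the Lcn2 level was not tested.

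Ggta1 (ENSMUSG00000035778, chromosome 2, 35400179 to 35463231, minus strand) encodes the galactosyltransferase that makes the alpha-gal epitope of cell surfaces. Its level was 7.41, 6.85, 10.2 and 8.68 CPM in saline, 10.4, 9.57, 6.81 and 8.95 CPM in scramble morphine and 20.6, 10.4, 16.5 and 10.9 CPM in knockdown. Every knockdown library was above every saline library, and knockdown replicate 2 was level with scramble morphine replicate 1. The fold was 1.63 (95% interval 1.19 to 2.22) over scramble morphine and 1.76 (1.29 to 2.40) over saline.

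Morphine against saline, both with the scramble virus, asked how the members stood after the morphine place preference had been extinguished. Neither direction was called by edgeR for any member, 0 of 10, at an adjusted p of 0.05, where 0% of all genes tested were called higher and 0% lower. DESeq2 and limma voom also called 0 of 10, and DESeq2 called higher 0.00911% of the 21944 genes to which it gave an adjusted p. At an unadjusted p of 0.05, 1 of 10 members was higher, Fbln5 (adjusted p in edgeR = 0.999), beside 1.67% of all genes, and 0 were lower, beside 1.82%. Of the members 5 of 10 had a log2 fold change above 0, as did 49.5% of all genes, and their median was 0.03. Fbln5 was also the member whose groups did not overlap, as was so upward for 1.55% of all genes. The count of 1 fell to 0 without saline replicate 3 or 4, or scramble morphine replicate 1, 4 or 5. With the replicate number as a block 3 of 10 were above 0, the median was -0.22, and 0 were higher and 1 lower at that p. With the share of counts on the ribosomal RNA locus as a covariate 8 of 10 were above 0 and the median was 0.36. That share was 3.58 to 5.63% in saline and 2.38 to 3.04% in scramble morphine, so that fit cannot separate it from the group.

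Knockdown against scramble, both with morphine, differed in the virus only. Vim, Cp, Ggta1, Osmr and Lcn2 stood higher in knockdown by 0.79, 0.50, 0.70, 0.53 and 3.98 on the log2 scale, and Fbln5, C4b, Cd44 and Serpina3n by 0.29, 0.26, 0.10 and 0.08. These 9 of 10 members above 0 stand beside 50.7% of all genes, and the member median of 0.39 beside 0.004. Because members were chosen with this contrast in view, nothing is read from that share. At an adjusted p of 0.05 edgeR called 0 of 10, beside 0% of all genes in each direction, and DESeq2, which gave Lcn2 no adjusted p, and limma voom also called 0. At an unadjusted p of 0.05, 5 of 10 were higher, beside 5.87% of all genes, and 0 lower, beside 6.17%. No member had groups that did not overlap, as 2.59% of all genes did upward. DESeq2 called higher 0.707% of the 13011 genes to which it gave an adjusted p. The smallest adjusted p in edgeR was that of Ggta1, 0.286 (log2 fold change 0.70, SE 0.21, 3 of 4 knockdown libraries above every scramble morphine library).

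These values leaned on knockdown replicate 1. Without it 5 of 10 members were above 0 and the median was 0.12, and 1 was higher at an unadjusted p of 0.05. The count of members higher at an unadjusted p of 0.05, 5 with all libraries, was 3 without saline replicate 3 or 5 or scramble morphine replicate 3 or 5, and 2 without scramble morphine replicate 4. Libraries also differed in how much of their counts fell on the ribosomal RNA locus, 2.38 to 3.04% in scramble morphine and 4.57 to 9.38% in knockdown, with 9.38% in replicate 1. With that share as a covariate 4 of 10 members were above 0, 0 were higher at an unadjusted p of 0.05 and the median was -0.07. The shares of these groups did not overlap, so that fit cannot separate the share from the group. The part of ribosomal RNA carry-over in the difference was not tested. In a fit that omitted saline replicate 4 and knockdown replicate 5, chosen after the data were seen, Ggta1 passed over all genes (log2 fold change 0.82, SE 0.20, edgeR adjusted p = 0.031). Those libraries had the lowest Htr6 of the saline group and the highest of the knockdown group, and omitting them left 3 libraries in each.

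**Figure D2:**
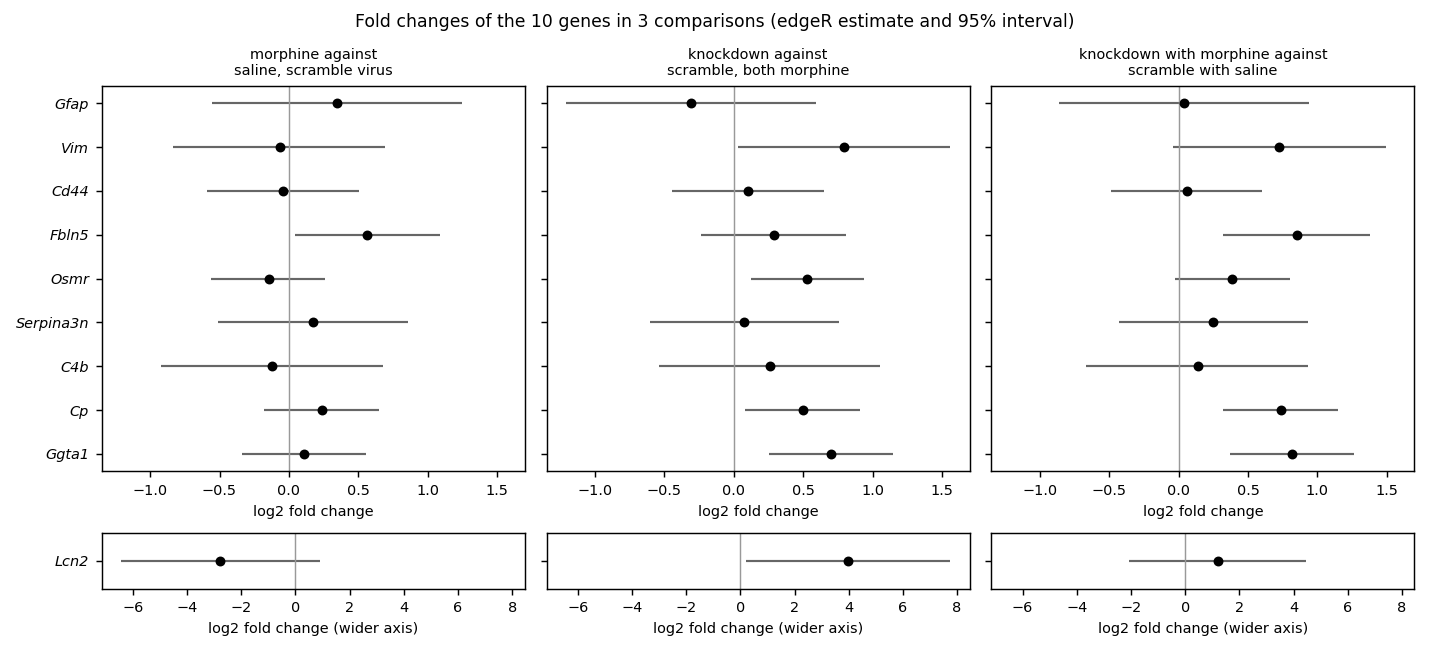
Log2 fold change (horizontal axes) of each of the 10 genes in the 3 comparisons, as points with the 95% interval from edgeR, and Lcn2 below on a wider axis. In knockdown against scramble with morphine 9 of 10 points lie right of 0, and Gfap lies left at -0.31.

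Knockdown with morphine against scramble with saline changed virus and drug together and shares its groups with the other comparisons, so its values stand beside theirs without a further test. Ggta1, Cp and Fbln5 stood higher by 0.81, 0.74 and 0.85 on the log2 scale, and these were the 3 of 10 members whose groups did not overlap, beside 2.18% of all genes upward. All 10 members had a log2 fold change above 0, from 0.04 for Gfap to 1.2 for Lcn2, beside 49.6% of all genes, with a median of 0.56. At an adjusted p of 0.05 edgeR called 0 of 10, beside 0.0137% of all genes higher and 0% lower. At an unadjusted p of 0.05, 3 of 10 were higher, beside 4.97% of all genes, and 0 lower, beside 4.37%.

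The tools parted here. DESeq2 called higher 0.591% of the 17264 genes to which it gave an adjusted p. Among the members DESeq2 called Cp (log2 fold change 0.74, adjusted p = 0.0218) and Ggta1 (0.82, adjusted p = 0.026). For these edgeR gave adjusted p = 0.319 and 0.309, and limma voom called 0 of 10. Ggta1 passed in edgeR when saline replicate 4 and knockdown replicate 5 were omitted (log2 fold change 1.05, SE 0.22, adjusted p = 0.0171). Without knockdown replicate 1, 6 of 10 members were above 0 and the median was 0.13. With the replicate number as a block these were 5 of 10 and 0.13, and with the ribosomal RNA covariate 7 of 10 and 0.24. Without knockdown replicate 1, Ggta1 stood at 0.60, Cp at 0.49 and Fbln5 at 0.53. Without knockdown replicate 2 the count at an unadjusted p of 0.05 was 6 of 10.

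**Figure D3:**
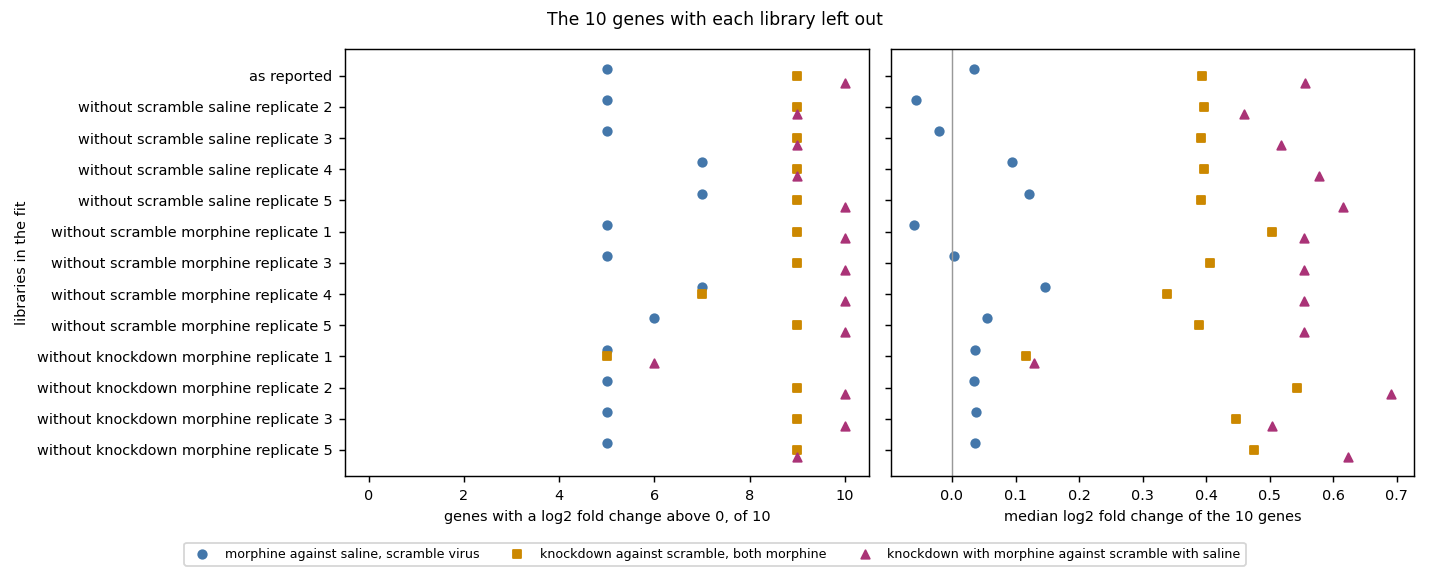
Number of the 10 genes with a log2 fold change above 0 (left axis panel) and their median log2 fold change (right panel) in the fit to all libraries and with each library omitted in turn, for the 3 comparisons. Without knockdown replicate 1 the count falls from 9 to 5 and from 10 to 6 in the comparisons that involve the knockdown.

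The knockdown libraries were also the most spread. For 10 of 10 members the SD of log2 CPM was largest in the knockdown group, as it was for 52.7% of all genes. For Serpina3n it was 0.68 against 0.32 in saline and 0.35 in scramble morphine, and for C4b it was 0.73 against 0.37 and 0.41. Without knockdown replicate 1 this held for 9 of 10 members, all but Cp, beside 50.4% of all genes. Knockdown replicate 1 was the highest of the 12 libraries for 9 members, and knockdown replicate 2 the lowest for Gfap, C4b, Serpina3n and Cd44.

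Members moved together within groups. Over the 12 libraries, deviations of log2 CPM from the group mean correlated above 0 in 41 of 45 pairs, with a median r of 0.60, and in 36 of 36 pairs without Lcn2. The pairs of Fbln5 with Vim and with C4b, at 0.43 and 0.30, were at -0.01 and -0.04 when knockdown replicate 1 was dropped. That library was left out of the correlation only, and the knockdown mean from which deviations were taken still included it. Libraries share depth and base composition across all their genes, and no share over all gene pairs stands beside these counts. These values are therefore given as a description. Serpina3n and Cd44 had r = 0.97 (Spearman rho = 0.93), and r = 0.93 without the 2 farthest libraries. C4b and Osmr had r = 0.95 (rho = 0.94), and 0.90 without the 2 farthest. Vim went with Ggta1 at r = 0.91 (rho = 0.88) and 0.84 without the 2 farthest.

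Gfap, Fbln5 and Lcn2 were more loosely tied to some members than these pairs. For Gfap the r with Vim was 0.37 (rho = 0.34), and 0.37 without the 2 farthest libraries. With Serpina3n its r was 0.71 (rho = 0.62), and 0.78 without them. Fbln5 ranged from 0.30 with C4b to 0.61 with Gfap. Lcn2 ranged from -0.22 with Osmr (rho = -0.32, and r = 0.15 without the 2 farthest) to 0.50 with Cp and 0.53 with Fbln5.

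**Figure D4:**
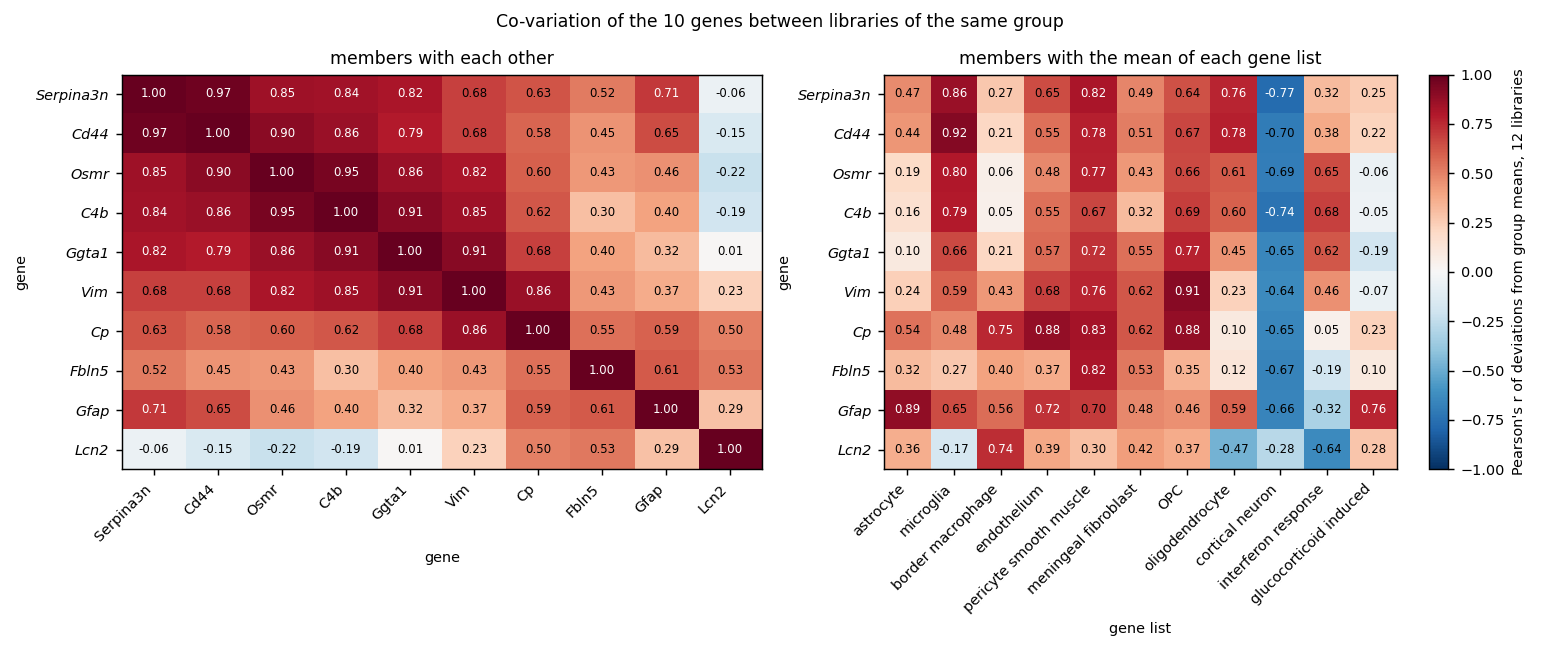
Pearson correlation (colour scale) of deviations of log2 CPM from group means over 12 libraries, between the 10 genes and between them and the marker lists. Serpina3n with Cd44 reaches 0.97, and Gfap follows the astrocyte markers at 0.89.

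Gfap followed the mean of 16 astrocyte markers at r = 0.89, whereas the other members had r between 0.10 and 0.54 with it. Cd44 and Serpina3n followed the microglia markers at 0.92 and 0.86. Vim and Cp followed the markers of oligodendrocyte precursors at 0.91 and 0.88, and Cp those of endothelium at 0.88. Markers of pericytes and smooth muscle ran at 0.67 to 0.83 with every member but Lcn2, which had 0.30. Gfap also had 0.84 with markers of ependyma and choroid plexus, but the tested genes of that list were near the floor, with means of 0.0845 to 3.28 CPM. Most members thus followed several lists, and no list was singled out. All 10 members ran against the cortical neuron markers, with r from -0.28 for Lcn2 to -0.77 for Serpina3n. The genes most like Gfap among 15955 of at least 1 CPM were Hadh, A2m, Plcd4, Gprc5b and Plxnb1, with r from 0.967 down to 0.953. Those most like Serpina3n were Itgb1, Soga1, Rhoj, Fgfr2 and Cd63, with r from 0.978 down to 0.957.

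Levels of the marker lists moved between groups beside the members. Summed astrocyte markers lay at 4770 to 6640 CPM in saline, 6050 to 6860 in scramble morphine and 5770 to 7280 in knockdown, and 5 of 16 were above 0 in knockdown over scramble morphine. Border macrophage markers lay at 10.3 to 19.8 CPM in scramble morphine and 23 to 31.1 in knockdown, with 7 of 7 above 0. Pericyte and smooth muscle markers ran from 254 to 304 CPM in scramble morphine and from 267 to 406 in knockdown, with 10 of 10 above 0. Microglia markers ran from 486 to 672 and from 400 to 571 CPM, with 2 of 10 above 0. Meningeal fibroblast markers ran from 201 to 332 and from 281 to 405 CPM, with 10 of 10 above 0, and endothelial markers from 269 to 325 and from 300 to 399 CPM, with 9 of 10. Oligodendrocyte markers ran from 1940 to 2650 and from 1260 to 2140 CPM, with 0 of 10 above 0. In saline, border macrophage markers ran from 11 to 14.9 CPM, pericyte and smooth muscle markers from 253 to 302 and microglia markers from 489 to 612. Meningeal fibroblast markers ran there from 175 to 296 CPM, endothelial markers from 290 to 377 and oligodendrocyte markers from 1830 to 2390. The part of these lists in the member values was not tested.

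Genes of the same pathways were also compared as lists. In knockdown over scramble morphine edgeR called 0 genes in each of these lists at an adjusted p of 0.05, and the counts below are at an unadjusted p of 0.05, where 5.87% of all genes were higher and 6.17% lower. Of 6 other genes known from reactive astrocytes generally 0 were higher, and of 10 other genes known from the inflammatory (A1) state 0. The members were left out of these lists, so members known from the same states are not counted here. Of 11 known from the ischaemic (A2) state 1 was higher and 1 lower, the latter Clcf1, a cytokine of the interleukin-6 family, at -0.67 (SE 0.27, edgeR adjusted p = 0.363). Of 16 genes of the interleukin-6 family and STAT3 pathway, which includes the partners of Osmr, 1 was higher, Stat3 itself at 0.25 (SE 0.10, edgeR adjusted p = 0.359). Of 17 other complement genes 3 were higher and 0 lower. In knockdown over saline 4 of the 17 were higher and 0 lower at that p, beside 4.97% and 4.37% of all genes. There edgeR called 0 and DESeq2 called 3, all higher, beside 0.591% of the genes to which it gave an adjusted p. In that comparison DESeq2 called 0 in the other lists above. The lists share genes with each other and with the marker lists.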

How the data were processed

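The authors deposited 1 table of raw counts per gene for 12 libraries. Oligo(dT) beads selected the RNA and dUTP marked the strand, per the labels' protocols. Per the submitters' processing notes, the build was mm10 and the tools named were edgeR, DESeq2, StringTie 1.3.4d, HISAT2 2.0.4 and cutadapt 1.9, with no role or order. The annotation release is not given in the sources used here, nor is the strand setting, so the counts may be whole-number estimates, and overlapping genes and copies are uncertain. Symbols and coordinates came from GENCODE M21 (55141 of 55401 IDs matched).

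All counts were tested in edgeR 4.0.16 (R 4.3.3), with filterByExpr at its minimum of 10 counts, TMM and a robust quasi-likelihood fit of 1 mean per group to all 12 libraries (9 residual degrees of freedom). P-values were two-sided and adjusted by Benjamini-Hochberg over 21958 genes. DESeq2 1.42.0, limma 3.58.1 voom with sample weights, other scalings and filters, compared groups alone, protein-coding genes only, a replicate block, the ribosomal RNA share as a covariate and each library left out were alternatives. DESeq2 was given the genes kept by the filter. Correlations used log2 CPM with a prior count of 2.

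The members, the 20 other gene and marker lists and the tests were chosen with earlier results of these data known. All 10 members are named, and of any other list described the gene with the smallest p, except 1 gene that is not reported here. A fit omitting saline replicate 4 and knockdown replicate 5 was added after seeing the data, dropped once its calls were seen, and then restored. DESeq2 was first run on all genes with a count, and the filtered run replaced it after its calls were seen; both are reported. The script was tested on simulated counts. Depth ran from 41483220 to 65739423 counts per library, and no 2 replicates agreed within sampling noise.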

Additional observations from a re-analysis of the deposited data

How the results depend on the processing

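With 4 libraries per group and no check of the knockdown from Htr6, small differences were not detectable, and a count of 0 calls does not show an absence of change. Genes called at an adjusted p of 0.05 were 0, 0 and 3 in morphine over saline, knockdown over scramble morphine and knockdown over saline (the first, second and last comparison below). The last count was 0 with library totals, voom, the replicate block and the ribosomal RNA covariate, and 5 without the filter or with the compared groups alone. The second was 2 without the filter, 1 with voom and 2 with the replicate block, and the first was 1 with the compared groups alone and 1 with the block. DESeq2 called 4, 157 and 147 genes, and 2 members in the last comparison (Cp and Ggta1). Run on all genes with a count it called 6, 168 and 154 genes and the same number of members, 2, with adjusted p = 0.0212 for Cp and 0.0264 for Ggta1.

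Omitting saline replicate 4 and knockdown replicate 5 gave 0, 1286 and 1078 genes and called 1 member, Ggta1, in each of the last 2 comparisons. This fit was chosen after seeing the data, from the Htr6 level of those libraries, at the group extremes of Htr6; the cause of the added calls was not tested. It was dropped when its calls were seen and is restored here, with C4b at 0.057 and Cd44 at 0.047 in the first comparison and Gfap at -0.34 in the last. With single libraries left out, genes called ranged from 0 to 0, 0 to 375 (without knockdown replicate 5) and 0 to 55 (the same library), and members called stayed at 0 in each comparison.

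Directions turned for the values below. Leave-one-out log2 fold changes ran in the first comparison from -0.295 to 0.053 for C4b, -0.17 to 0.11 for Cd44 and -0.276 to 0.072 for Vim. In the second they ran from -0.016 to 0.48 for C4b, -0.053 to 0.301 for Cd44, -0.037 to 0.439 for Fbln5 and -0.15 to 0.31 for Serpina3n, and in the last from -0.14 to 0.36 for C4b, -0.094 to 0.257 for Cd44, -0.17 to 0.33 for Gfap and -0.45 to 1.71 for Lcn2. With voom Cd44 was 0.12 in the first comparison, and Gfap -0.073 and Lcn2 -2.21 in the last. With the ribosomal RNA covariate Vim was 0.36, Lcn2 2.00 and Cd44 0.056 in the first, Serpina3n -0.22, Cp -0.088, Fbln5 -0.69, Lcn2 -4.94 and Cd44 -0.058 in the second, and Gfap -0.20, Lcn2 -2.94 and Cd44 -0.002 in the last. With the replicate number as a block Serpina3n was -0.13 and Ggta1 -0.093 in the first comparison, and Gfap -0.29, Serpina3n -0.003, Lcn2 -1.25, C4b -0.13 and Cd44 -0.11 in the last. Same-numbered libraries correlated at -0.019 to 0.127, and 3, 4 and 4 of 6 libraries correlated best with their own number, with not every pair above 0.1; the labels tie no number to an animal or batch, so the samples were not treated as paired. In the first and second comparisons the ribosomal RNA shares of the groups did not overlap, so the covariate fit cannot separate share from group there. The cause of these turns was not tested.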

Other observations

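Iron handling and scar matrix, which neighbour Cp and the filament genes in function, are described here as values. Of 10 other genes of iron handling edgeR called 0 in any comparison at an adjusted p of 0.05. In morphine over saline 2 were lower at an unadjusted p of 0.05, beside 1.82% of all genes, with the smallest p for Tfrc, the transferrin receptor, at a log2 fold change of -0.33 (SE 0.08, edgeR adjusted p = 0.999). In knockdown over scramble morphine 1 was higher and 1 lower, beside 5.87% and 6.17% of all genes, the latter Ftl1, a ferritin subunit, at -0.23 (SE 0.09, edgeR adjusted p = 0.347). In knockdown over saline, beside 4.37% of all genes lower and 4.97% higher, 2 were lower and 1 was higher, Heph, a ferroxidase like Cp, at 0.72 (SE 0.22, edgeR adjusted p = 0.369).

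Of 13 filament and scar matrix genes 0 were called by edgeR. DESeq2 called 1, higher, in knockdown over scramble morphine and 1, higher, in knockdown over saline. It called higher 0.707% and 0.591% of the genes to which it gave an adjusted p. At an unadjusted p of 0.05 in edgeR, 3 were higher and 0 lower in knockdown over scramble morphine, beside 5.87% and 6.17% of all genes. The smallest p was that of Xylt1, which starts the sugar chains of proteoglycans, at 0.35 (SE 0.08, edgeR adjusted p = 0.248). In morphine over saline 1 was lower and 0 higher, beside 1.82% and 1.67% of all genes, and it was also Xylt1, at -0.18 (SE 0.08, edgeR adjusted p = 0.999). In knockdown over saline 3 were higher, beside 4.97% of all genes, with the smallest p for Fn1, fibronectin, at 0.73 (SE 0.20, edgeR adjusted p = 0.35).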
